A study of Mus musculus with 6 samples.

Results

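Iron-sulfur cluster assembly genes and their partners at the mitochondrial membrane were read in megakaryocyte-erythroid progenitors, marrow cells from which the red cell and platelet lineages descend. The group holds 8 genes chosen by name, Nfs1, Iscu, Hscb, Glrx5, Isca1, Isca2, Abcb10 and Slc25a38, among the 55487 genes of a count table, and each of the 8 had a single row there. Wild-type C57BL/6 mice, 8 weeks old, gave the sorted progenitors, and bulk sequencing of polyadenylated RNA was used to ask how a short fast acts on red cell formation. There were 3 libraries of control mice and 3 of mice fasted for 6 h, and no other allele or agent is named for either group. The labels do not say how many mice went into a library or whether libraries came from separate animals, so p-values measure the spread between these libraries only.

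Iron-sulfur clusters are small cofactors of iron and sulfide that carry electrons or hold a protein's fold, and most are first built in mitochondria. NFS1 takes sulfur from cysteine, ISCU is the scaffold on which iron and sulfur meet, and HSCB is the co-chaperone that helps the finished cluster leave it. GLRX5 receives that cluster, and ISCA1 and ISCA2 act together in making the larger clusters that several mitochondrial enzymes need. ABCB10 is a transporter of the mitochondrial inner membrane that is abundant in erythroid cells and needed for haemoglobin formation. SLC25A38 brings glycine into mitochondria for the first enzyme of haem synthesis, so it is an importer and not an exporter. Erythroid cells depend on the pathway because ferrochelatase, the last enzyme of haem synthesis, carries a cluster, and because the cluster of cytosolic aconitase governs how iron is sensed. Inherited defects of GLRX5, HSCB and SLC25A38 cause sideroblastic anaemia in people.

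Promoter sequence was at hand for 6 of the 8 genes, as RefSeq windows on GRCm38.p6, and the 250 bases before the start site are shown for Abcb10, Nfs1 and Slc25a38, which had their lowest and highest levels in the same libraries, and for Isca2, whose window held GATA words. Capitals mark matches to an ETS word (CTTCCGG or CCGGAAG), to the word of nuclear respiratory factor 1 (the capitals of the Abcb10 window, the same on both strands) and to GATA words (AGATAA or AGATAG or TGATAA or TGATAG, searched on both strands). The windows are chr8:123983123-123983372, minus strand, for Abcb10, chr2:156144187-156144436, minus strand, for Nfs1, chr9:120110132-120110381, plus strand, for Slc25a38, and chr12:84773020-84773269, plus strand, for Isca2, each written 5′ to 3′ on the gene's strand.
Abcb10: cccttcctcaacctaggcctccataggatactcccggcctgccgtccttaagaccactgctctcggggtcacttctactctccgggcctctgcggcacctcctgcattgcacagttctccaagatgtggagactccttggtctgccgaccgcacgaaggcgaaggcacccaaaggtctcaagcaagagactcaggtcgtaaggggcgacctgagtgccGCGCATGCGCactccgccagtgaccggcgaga
Nfs1: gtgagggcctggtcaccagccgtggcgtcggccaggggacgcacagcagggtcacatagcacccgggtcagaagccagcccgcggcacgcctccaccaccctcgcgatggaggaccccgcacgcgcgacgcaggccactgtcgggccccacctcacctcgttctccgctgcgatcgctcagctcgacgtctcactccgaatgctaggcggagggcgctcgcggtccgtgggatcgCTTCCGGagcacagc
Slc25a38: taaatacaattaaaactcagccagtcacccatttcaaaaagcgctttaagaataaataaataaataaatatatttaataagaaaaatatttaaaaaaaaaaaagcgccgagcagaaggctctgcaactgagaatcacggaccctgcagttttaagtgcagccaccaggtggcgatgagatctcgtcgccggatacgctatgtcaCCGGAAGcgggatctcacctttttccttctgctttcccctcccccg
Isca2: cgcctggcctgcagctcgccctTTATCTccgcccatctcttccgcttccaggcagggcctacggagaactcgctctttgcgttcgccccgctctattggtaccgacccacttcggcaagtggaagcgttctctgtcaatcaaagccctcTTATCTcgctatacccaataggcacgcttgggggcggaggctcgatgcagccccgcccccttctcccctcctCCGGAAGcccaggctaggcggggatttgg

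The ETS word was in 4 of the 6 windows, those of Nfs1, Slc25a38, Isca2 and Isca1, against 15.6% of the 8604 windows of the genes tested below and 6.91% of all 32851 windows. It lay 15 to 9 bases before the start of Nfs1, 46 to 40 before that of Slc25a38, 29 to 23 before that of Isca2 and 216 to 210 before that of Isca1. The Abcb10 window held the nuclear respiratory factor 1 word 32 to 23 bases before its start, a word found in 1.87% of the windows of genes tested. GATA words, the short sequence that GATA1 recognises, were in the Isca2 window alone, as TTATCT at 228 to 223 and at 101 to 96 bases before the start, against 17.4% of the windows of genes tested. CCAAT boxes (CCAAT or ATTGG) were in 3 windows, those of Glrx5, Isca1 and Isca2, against 35.9%. The GC box (GGGCGG or CCGCCC) was in the Isca2 window alone, against 57.8%, and the E-box CACGTG was in none of the 6, against 8.81%. The words were chosen after these windows were seen, so setting the counts beside these shares tests nothing. A match describes these letters only.

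Libraries held 22445970 to 30246110 gene counts in the control group and 12797144 to 18225191 in the fasted group, 1.72 times as many on average in controls. Genes of odorant and vomeronasal receptors, which blood cells do not use, also held counts, and such a background would make up 3.90% to 8.58% of the control counts and 11.5% to 14.6% of the fasted counts if its rate held over all exons. For that reason the comparison was scaled and run over the 10648 genes whose mean count reached 5 times that background. Levels below are in counts per 1000000 (CPM), relative to the counts in those genes after TMM scaling, a correction for differences in library composition. All 8 genes passed, at 16.0 times the background for Isca1 and 24.5 to 69.5 times for the other 7. Background made up at most 10.4% of the Isca1 count in any library, and at most 7.34% for any other of the 8. Erythroid transcription factor genes named for the labelled cell type were present in every library, Gata1 at 158 to 389.7 CPM and Klf1 at 238 to 697 CPM.

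Per unit of exon length (TPM, transcripts per 1000000), the scaffold gene Iscu was the most abundant of the 8, with a mean of 117 TPM over the 6 libraries, followed by Hscb with 108 TPM and Isca2 with 106 TPM. Nfs1 had 79.8 TPM, Slc25a38 71.7 TPM, Glrx5 54.1 TPM, Abcb10 42.8 TPM and Isca1 28.2 TPM. Abcb10 lay above Isca1 in 6 of 6 libraries with no overlap of their ranges, and Isca2 lay above Nfs1 in 6 of 6 libraries although their ranges overlapped. The other neighbours in this order were not separated by the spread of the libraries: Iscu exceeded Hscb in 5 of 6, Nfs1 exceeded Slc25a38 in 5 of 6, Slc25a38 exceeded Glrx5 in 5 of 6, Glrx5 exceeded Abcb10 in 4 of 6 and Hscb exceeded Isca2 in 2 of 6. The low rank of Isca1 is per base of its 10680 exonic bases, the longest of the 8, while Hscb has 905. Among all genes tested, Iscu stood above 87.1% in mean TPM and Isca1 above 53.6%.

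None of the 8 genes passed the comparison of fasted with control libraries (edgeR's quasi-likelihood test, Benjamini-Hochberg adjusted p under 0.05), where 0% of the 10648 genes passed. At an unadjusted p under 0.05 there were 2 of the 8, Isca1 and Iscu, against 19.9% of all genes tested, and DESeq2 and limma-voom also passed none of the 8. DESeq2 passed 501 genes in all and limma-voom 0. Control and fasted ranges were apart for 2 of the 8 genes, against 27.4% of all genes tested, with Iscu lower and Isca1 higher in fasted libraries. Log2 fold changes were above 0 for 5 genes and below 0 for 3, between -0.27 for Iscu and 0.43 for Slc25a38, with a median of 0.18 against 0.02 for all genes tested. In bulk RNA, a smaller share of cells that use a gene and less RNA per cell cannot be told apart.

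**Figure D1:**
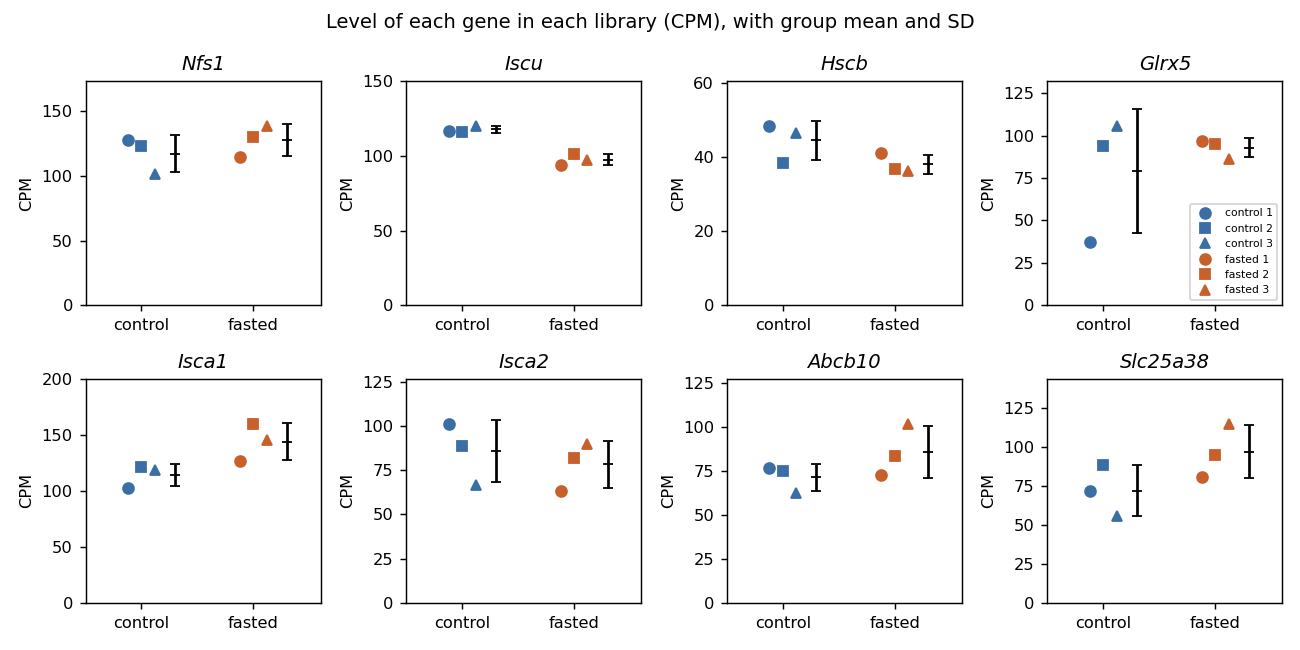
Level of each of the 8 genes in CPM (vertical axis, from 0) in the 3 control and 3 fasted libraries, with each symbol a library and the bar beside it the group mean and SD. Iscu is the gene whose fasted libraries (93.9 to 101 CPM) all lie below its control libraries (116 to 120.2 CPM), Isca1 the gene whose fasted libraries all lie above, and Glrx5 has a single low library, control 1.

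Nfs1 (ENSMUSG00000027618.17, GRCm38 chromosome 2, 156123639 to 156144186, minus strand), the cysteine desulfurase that supplies the sulfur, had 128, 123 and 101 CPM in control libraries 1, 2 and 3 and 115, 129.8 and 139 CPM in fasted libraries 1, 2 and 3. The groups overlapped, with control 3 the lowest and fasted 3 the highest library. Its log2 fold change was 0.12 (SE 0.14, 95% interval -0.19 to 0.44, edgeR adjusted p 0.646). A gene model on the same strand and Romo1 on the other share 7.09% and 4.10% of its exonic bases, and how shared reads were assigned is not given in the sources used here.

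Iscu (ENSMUSG00000025825.12, chromosome 5, 113772748 to 113778288, plus strand), the scaffold gene, had the smallest spread of the 8 relative to its mean in both groups. It had 117, 116 and 120.2 CPM in control libraries and 93.9, 101 and 97.1 CPM in fasted libraries, so the highest fasted library lay under the lowest control library. The means were 118 CPM ± 2.10 and 97.5 CPM ± 3.71 (SD, n = 3 each), and the log2 fold change was -0.27 (SE 0.11, 95% interval -0.53 to -0.01), 0.83 times the control level. The unadjusted p was 0.0407 and the edgeR adjusted p 0.236, which misses the threshold. With any 1 library left out the log2 fold change stayed between -0.33 and -0.26. Its gene body overlaps no other gene model.

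Hscb (ENSMUSG00000043510.12, chromosome 5, 110829070 to 110839777, minus strand), the co-chaperone gene that works on the ISCU scaffold, lay on the same side. It had 48.4, 38.5 and 46.5 CPM in control libraries and 41.1, 36.7 and 36.2 CPM in fasted libraries. Fasted 1 exceeded control 2, so the groups overlapped. The log2 fold change was -0.23 (SE 0.16, 95% interval -0.59 to 0.13, edgeR adjusted p 0.444), and it was -0.36 without control 2 and -0.15 without control 1. The profiles of Iscu and Hscb, centred on the 6 libraries, differed by a root mean square of 0.13 on the log2 scale, the second smallest of the 28 pairs of these genes.

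Glrx5 (ENSMUSG00000021102.4, chromosome 12, 105032688 to 105042906, plus strand), the monothiol glutaredoxin that carries a cluster onward, owed its fold change to a single library. It had 37.3, 94.2 and 106 CPM in control libraries and 97.0, 95.3 and 86.5 CPM in fasted libraries. Control 1 had less than any other library, at 1046 raw counts from the deepest library, and the other 5 lay close together. Its control SD of 36.7 CPM was the largest of the 8 genes. The log2 fold change of 0.23 (SE 0.34, 95% interval -0.57 to 1.03, edgeR adjusted p 0.727) became -0.09 without control 1. Summed granulocyte and monocyte markers were at 3937, 13171 and 20044 CPM in control libraries 1, 2 and 3 and at 4978, 3479.9 and 2182 CPM in fasted libraries 1, 2 and 3, and their part in the Glrx5 values was not tested.

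Isca1 (ENSMUSG00000044792.7, chromosome 13, 59755409 to 59769810, minus strand) and Isca2 (ENSMUSG00000021241.7, chromosome 12, 84773251 to 84775088, plus strand) encode partner proteins of the same step, yet their values lay on different sides. Isca1 had 103, 121 and 119 CPM in control libraries and 127, 160.3 and 146 CPM in fasted libraries, and every fasted library exceeded every control library. Its log2 fold change was 0.33 (SE 0.14, 95% interval 0.03 to 0.64), 1.26 times the control level, with an unadjusted p of 0.0363 and an edgeR adjusted p of 0.228. Leaving out 1 library at a time gave 0.23 to 0.41, while scaling over genes at or above 2 times the background gave 0.0032 (edgeR adjusted p 0.992). Overlapping gene models share 1.08% of its exonic bases on its own strand and 2.94% on the other. Isca2 had 101, 88.8 and 66.8 CPM in control libraries and 63.3, 81.9 and 89.5 CPM in fasted libraries, and the groups overlapped. Its log2 fold change was -0.13 (SE 0.19, 95% interval -0.56 to 0.30, edgeR adjusted p 0.722), and it became 0.02 without control 1. The Isca1 to Isca2 count ratio was 1.02, 1.37 and 1.78 in controls and 2.00, 1.96 and 1.63 after fasting, so the ranges overlapped (two-sided exact permutation test, p = 0.2).

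Abcb10 (ENSMUSG00000031974.8, chromosome 8, 123952459 to 123983122, minus strand), the inner membrane transporter gene, had 76.6, 74.9 and 62.4 CPM in control libraries and 72.5, 83.3 and 102 CPM in fasted libraries. Fasted 1 lay below control 1 and 2, so the groups overlapped. Its log2 fold change was 0.27 (SE 0.16, 95% interval -0.10 to 0.63, edgeR adjusted p 0.380), and 0.12 without fasted 3 or 0.15 without control 3. Models on the other strand share 10.3% of its exonic bases.

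Slc25a38 (ENSMUSG00000032519.11, chromosome 9, 120110374 to 120124504, plus strand), the glycine carrier gene, had the highest fold change of the 8. It had 71.4, 88.3 and 55.8 CPM in control libraries and 80.6, 94.9 and 115 CPM in fasted libraries. Control 2 exceeded fasted 1, so the groups overlapped, and control 3 and fasted 3 were again the lowest and highest. The log2 fold change was 0.43 (SE 0.20, 95% interval -0.01 to 0.87), 1.35 times the control level, with an unadjusted p of 0.0559 and an edgeR adjusted p of 0.264. It was 0.25 without control 3, 0.29 without fasted 3 and 0.078 when scaled over genes at or above 2 times the background.

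**Figure D2:**
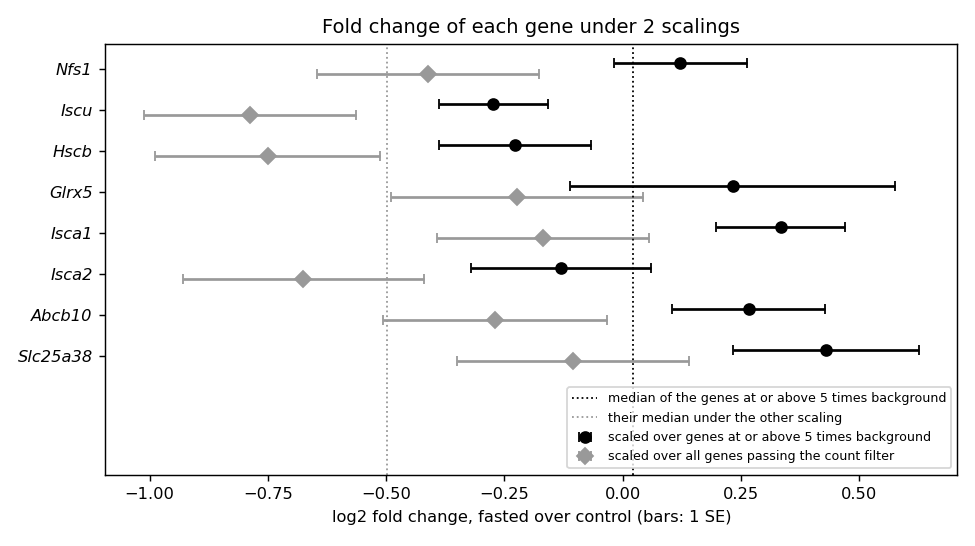
Log2 fold change of fasted over control libraries for the 8 genes (horizontal axis, bars 1 SE), scaled over genes at or above 5 times the background (black) and over all genes passing the count filter (grey), with dotted lines at the median of the same 10648 genes under each scaling. The black values run from -0.27 to 0.43 and the grey values from -0.79 to -0.10, and each gene keeps about the same distance from its dotted line.

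These signs depended on how libraries were scaled. When TMM factors were taken over all 36508 genes that pass the count filter, most of them near background, the median of the 10648 genes above background moved to -0.50, and all 8 genes lay below 0, from -0.10 for Slc25a38 to -0.79 for Iscu. In that fit Iscu passed with a log2 fold change of -0.79 (SE 0.22, edgeR adjusted p 0.0464), so 1 of the 8 was called lower and 0 higher. Of the 36508 genes 3.82% were called lower and 1.15% higher, and of the same 10648 genes 12.8% and 0.0751%. Hscb had -0.75 (edgeR adjusted p 0.0600), Isca2 -0.68 (edgeR adjusted p 0.0958) and Nfs1 -0.41 (edgeR adjusted p 0.242). Under it the fasted libraries of Hscb as well as Iscu lay wholly below controls, 2 of 8 against 47.5% of the same genes, and Isca1 overlapped, so 0 of 8 lay wholly above, against 3.57%.

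Ratios of raw counts within a library do not depend on scaling. Raw counts still hold the background, which was not subtracted here. It made up 0.595% to 2.86% of the Iscu count and 3.32% to 10.4% of the Isca1 count, and its part in the ratios was not tested. Of the 28 pairs of the 8 genes, 9 had ratios that did not overlap between groups (32.1%), against 26.7% of all pairs of genes tested. All 28 were compared, the smallest p that 3 against 3 libraries allow is 0.1 (two-sided exact permutation test), and the smallest adjusted over the 28 was 0.311, so none passed. Iscu was in 5 of the 9. Iscu to Isca1 was 1.14, 0.958 and 1.01 in control libraries and 0.742, 0.632 and 0.666 in fasted libraries, 0.66 times the control ratio. Iscu to Slc25a38 was 1.64, 1.32 and 2.15 in controls and 1.16, 1.07 and 0.846 after fasting, 0.61 times. Iscu to Abcb10 was 1.53, 1.55 and 1.93 in controls and 1.30, 1.22 and 0.954 after fasting, 0.69 times. Iscu to Nfs1, the scaffold against the sulfur donor, was 0.916, 0.946 and 1.19 in controls and 0.820, 0.780 and 0.700 after fasting, 0.76 times. In these 4 pairs every fasted ratio was below every control ratio, each with p = 0.1 (exact permutation test).

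The remaining ratios without overlap were Iscu to Glrx5, whose size rests on the low Glrx5 of control 1, Abcb10 to Nfs1, Abcb10 to Isca2, Nfs1 to Isca2 and Isca2 to Slc25a38. For Iscu to Glrx5 the groups were barely apart, with a lowest control ratio of 1.14 and a highest fasted ratio of 1.12. Abcb10 to Nfs1 was the tightest of all, with 0.600, 0.610 and 0.616 in controls and 0.632, 0.641 and 0.734 after fasting. Iscu to Hscb overlapped, with 2.42, 3.01 and 2.58 in controls and 2.29, 2.76 and 2.68 after fasting (exact permutation test, p = 0.8).

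**Figure D3:**
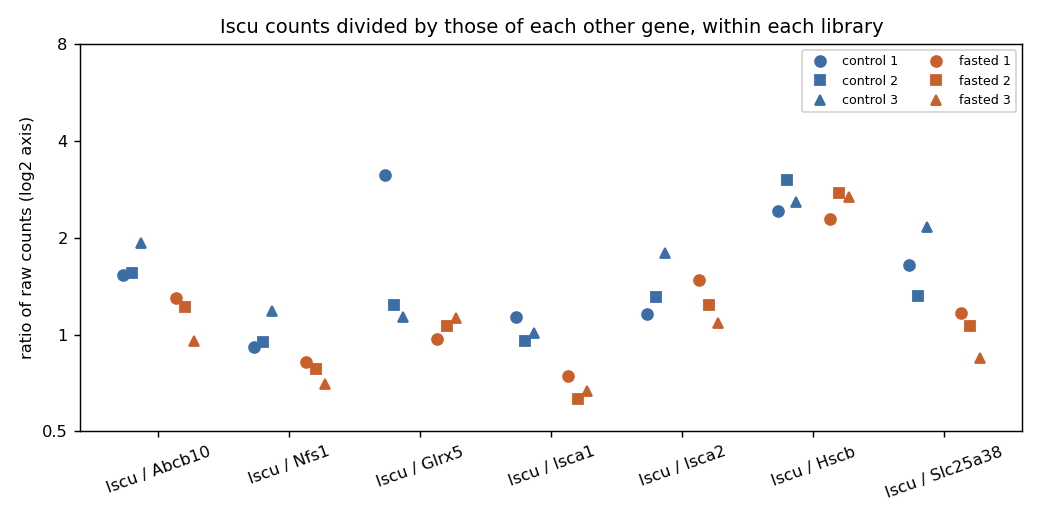
Raw Iscu counts divided by those of each of the other 7 genes within each library (vertical axis, log2 scale), blue for control and orange for fasted libraries, with 1 symbol per library. The groups separate for Abcb10, Nfs1, Isca1 and Slc25a38, barely for Glrx5 (lowest control 1.14, highest fasted 1.12), and overlap for Isca2 and Hscb.

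Abcb10, Nfs1 and Slc25a38 shared a pattern across libraries that crossed the groups. For all 3 the lowest library was control 3 and the highest fasted 3. Their centred log2 CPM values were -0.32, -0.27 and -0.56 in control 3 and 0.39, 0.19 and 0.48 in fasted 3. Summed markers of the erythroid lineage (13 of 15 listed genes tested) were lowest and highest in the same libraries, at -0.68 and 0.47 on that scale, or 4435 and 9825 CPM. Car1 and Car2 made up 68.3% to 73.2% of that sum. Taken singly, 12 of the 13 were lowest in control 3 (all but Tfrc) and 10 were highest in fasted 3, while Gata1, Klf1 and Gfi1b were highest in control 1. Iscu did not follow, with 0.17 in control 3 and -0.14 in fasted 3. The same lowest and highest libraries were found for some genes of the pathway and transport lists read below, such as Lias, Abcb8 and Ercc2. The pattern was thus not limited to Abcb10, Nfs1 and Slc25a38. The share of all genes tested with these extremes was not computed, so how common it is cannot be said. The part of erythroid content in the values of Abcb10, Nfs1 and Slc25a38 was not tested.

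**Figure D4:**
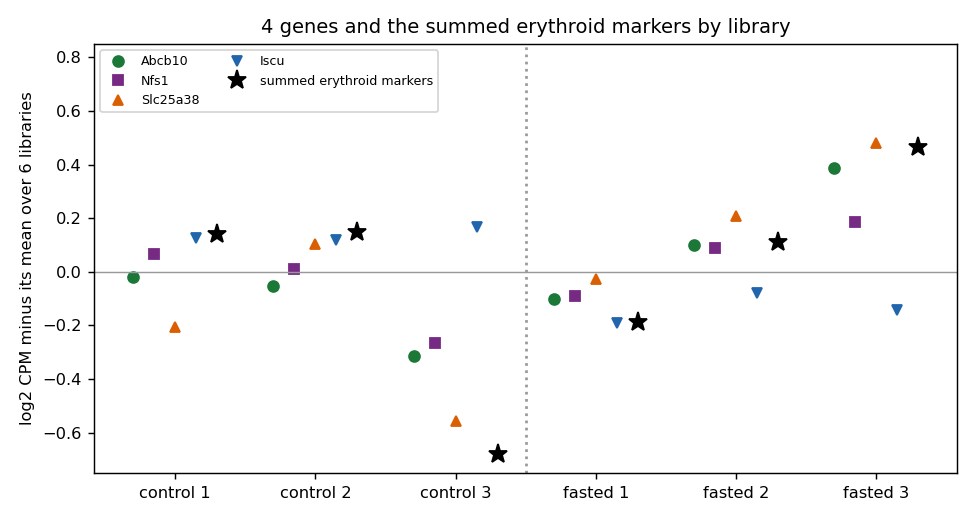
Log2 CPM minus its mean over the 6 libraries (vertical axis) for Abcb10, Nfs1, Slc25a38 and Iscu, and for the summed CPM of the erythroid markers, in each library (horizontal axis, symbols offset sideways for clarity). The erythroid sum, Abcb10, Nfs1 and Slc25a38 are all lowest in control 3 and highest in fasted 3, while Iscu is above 0 in the 3 control libraries and below 0 in the 3 fasted libraries.

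Markers of other cell types also differed between libraries. Granulocyte and monocyte markers (18 of 18 tested) summed to 3937 to 20044 CPM in control and 2182 to 4978 CPM in fasted libraries, and megakaryocyte markers (6 of 11 tested) to 493 to 652 CPM and 237 to 445 CPM. Lymphocyte markers (6 of 13 tested) summed to 355 to 677 CPM in control and 130.4 to 394 CPM in fasted libraries. Log2 fold changes were above 0 for 4 of the 6 and below 0 for 2. Nkg7, below 0, alone had 299 to 584 CPM in control and 63.8 to 208 CPM in fasted libraries. Stem and multipotent progenitor markers (6 of 10 tested) summed to 1094 to 1524 CPM in control and 874 to 1220.2 CPM in fasted libraries. Of these 6, 5 lay below 0 and 1 above, Flt3, with a log2 fold change of 0.76 (SE 0.23, edgeR adjusted p 0.155). No marker was at 0 in any library, and the T cell genes Cd3e, Cd3d, Cd3g, Cd4 and Cd8a lay under 5 times the background. Their part in the values of the 8 genes was not tested.

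The gene closest in profile to each of 7 of the 8 is given below, taken as the one with the smallest root mean square difference of centred log2 CPM over the 6 libraries, among 7570 other genes with a mean of at least 20 CPM. Such a match is a description of 6 values. For Iscu it was Zmpste24, a membrane protease gene, with a difference of 0.033. For Nfs1 it was Faf2, a gene of protein degradation at the endoplasmic reticulum (0.013) and for Isca1 the mitochondrial leucyl-tRNA synthetase gene Lars2 (0.030). For Abcb10 it was the phospholipase gene Pnpla6 (0.041), for Isca2 the Golgi membrane gene Yipf6 (0.046), for Slc25a38 the vinculin gene Vcl (0.053) and for Glrx5 the predicted gene Gm10719 (0.091). None of these 7 matches was another gene of the 8. Glrx5 had the loosest match.

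The rest of the pathway was read from lists of genes by role, 54 genes of which 53 were tested, and 0 of the 53 passed edgeR's adjusted test. There were 11 with an unadjusted p under 0.05, a share close to the 19.9% of all genes tested. Log2 fold changes were below 0 for 36 and above 0 for 17, with a median of -0.12 against 0.02 for all genes tested. Fasted libraries lay wholly below control libraries for 17 of the 53, against 13.0% of all genes tested, and wholly above for 2, against 14.4%. Scaling over all genes passing the count filter moved every list median down. In 5 of the 6 lists below the gene with the largest fold change is named by rule, and the others named were picked after their values were seen.

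Partners of the assembly complex (6 of 7 tested, with Fdx2 under the background limit) had a median log2 fold change of -0.11, and 5 of the 6 were below 0. Hspa9, the mitochondrial chaperone that HSCB serves, had 864, 851 and 812 CPM in control and 634, 877 and 783 CPM in fasted libraries, with a log2 fold change of -0.14 (SE 0.14, edgeR adjusted p 0.602). Its groups overlapped through fasted 2. Fdx1, a ferredoxin gene, had the largest change of the list at -0.19 (SE 0.17, edgeR adjusted p 0.551).

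Late mitochondrial genes (6 of 6 tested) had a median of 0.15. Iba57, whose protein works with ISCA1 and ISCA2, had 20.4, 18.4 and 15.4 CPM in control and 27.6, 23.5 and 40.7 CPM in fasted libraries, so its groups did not overlap, as for Isca1. The log2 fold change of 0.76 (SE 0.25) missed the threshold (edgeR adjusted p 0.165). Iba57 lay near the limit, at 6.35 times the background, which made up 7.67% to 23.6% of its count. Scaled over all genes its log2 fold change was 0.21 (edgeR adjusted p 0.609) and its groups overlapped. Nfu1, which hands clusters to lipoate synthase, was on the other side, with 128, 133 and 127 CPM in control and 119, 123 and 113 CPM in fasted libraries and a log2 fold change of -0.12 (SE 0.11, edgeR adjusted p 0.562). Lias, lipoate synthase itself, had 0.35 (SE 0.16, edgeR adjusted p 0.270).

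Export from mitochondria and cytosolic assembly (13 of 13 genes tested) had a median of -0.17, with 11 of 13 below 0. In 5 of the 13 every fasted library was below every control library (Nubp1, Nubp2, Ciapin1, Ciao2a and Glrx3), against 13.0% of all genes tested. Ciao2a, a targeting factor of the cytosolic machinery, had 321, 329 and 329 CPM in control and 246, 278 and 253 CPM in fasted libraries, a log2 fold change of -0.33 (SE 0.11, edgeR adjusted p 0.170). Ciapin1, the electron donor of cytosolic assembly, had 174, 226 and 221 CPM in control and 157, 172 and 172 CPM in fasted libraries (log2 fold change -0.31, SE 0.13, edgeR adjusted p 0.241). Scaled over all genes, 3 of the 13 passed as lower, against 12.8% of the genes above background.

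Proteins that carry a cluster, listed with the iron sensor Ireb2 (28 of 28 genes tested), had a median of -0.13. Log2 fold changes were below 0 for 18 of them and above 0 for 10. In 10 of the 28 the fasted libraries lay wholly below controls, against 13.0% of all genes tested. Sdhb, the iron-sulfur subunit of succinate dehydrogenase, had 521, 462 and 419.95 CPM in control and 391, 389 and 364 CPM in fasted libraries (log2 fold change -0.29, SE 0.12, edgeR adjusted p 0.234). Ndufs8, an iron-sulfur subunit of complex I, had 246, 241 and 232 CPM in control and 206, 187 and 194 CPM in fasted libraries (log2 fold change -0.29, SE 0.11, edgeR adjusted p 0.202). Cisd3, a small mitochondrial cluster protein, had the largest change, from 9.52, 8.60 and 16.2 CPM to 7.65, 5.29 and 4.07 CPM (log2 fold change -1.01, SE 0.34, edgeR adjusted p 0.173). Background made up 2.80% to 22.8% of its count.

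The 2 iron regulatory proteins were among the 10 genes of that list above 0. Ireb2 had 47.2, 46.1 and 48.6 CPM in control and 58.6, 65.9 and 52.6 CPM in fasted libraries, with no overlap and a log2 fold change of 0.32 (SE 0.15, edgeR adjusted p 0.264). Aco1, cytosolic aconitase, which senses iron through its cluster, had 92.7, 76.0 and 59.3 CPM in control and 73.4, 117 and 127 CPM in fasted libraries (log2 fold change 0.48, SE 0.23, edgeR adjusted p 0.288), and its groups overlapped. Scaled over all genes, 8 of the 28 genes passed as lower, against 12.8% of the genes above background, and the values of Ireb2 and Aco1 turned to -0.19 and -0.07.

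The haem side of the pathway, which Slc25a38 feeds with glycine, held the gene with the smallest p of the whole comparison. Alas1, the ubiquitous first enzyme that uses this glycine, had 132, 198 and 254 CPM in control and 54.8, 39.9 and 47.5 CPM in fasted libraries, a log2 fold change of -2.04 (SE 0.24, edgeR adjusted p 0.0900). Its erythroid counterpart Alas2 had 5.60, 10.5 and 13.8 CPM in control and 12.8, 19.4 and 10.3 CPM in fasted libraries, with overlap (log2 fold change 0.51, SE 0.37, edgeR adjusted p 0.456). Alas2 was at 6.45 times the background, which made up 12.6% to 25.9% of its count. Of the haem enzymes (9 of 9 tested, median 0.22) the 8 other than Alas1 lay above 0, as Slc25a38 did. Scaled over all genes, the median of the 9 was -0.31. Fech, the enzyme that carries a cluster and inserts the iron, had 239, 319.7 and 184 CPM in control and 204, 334 and 333 CPM in fasted libraries (log2 fold change 0.23, SE 0.25, edgeR adjusted p 0.625), with control 3 lowest as for Abcb10. Among other mitochondrial transport genes (7 of 10 tested, median -0.09), Flvcr1, a gene described as a haem exporter, had the largest change at 0.32 (SE 0.22, edgeR adjusted p 0.420). Flvcr1 lay near the limit, at 5.31 times the background, which made up 11.3% to 28.3% of its count. Scaled over all genes its log2 fold change was -0.17. Slc25a37, the iron importer that ABCB10 binds in erythroid cells, had -0.09 (SE 0.16, edgeR adjusted p 0.771).

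**Figure D5:**
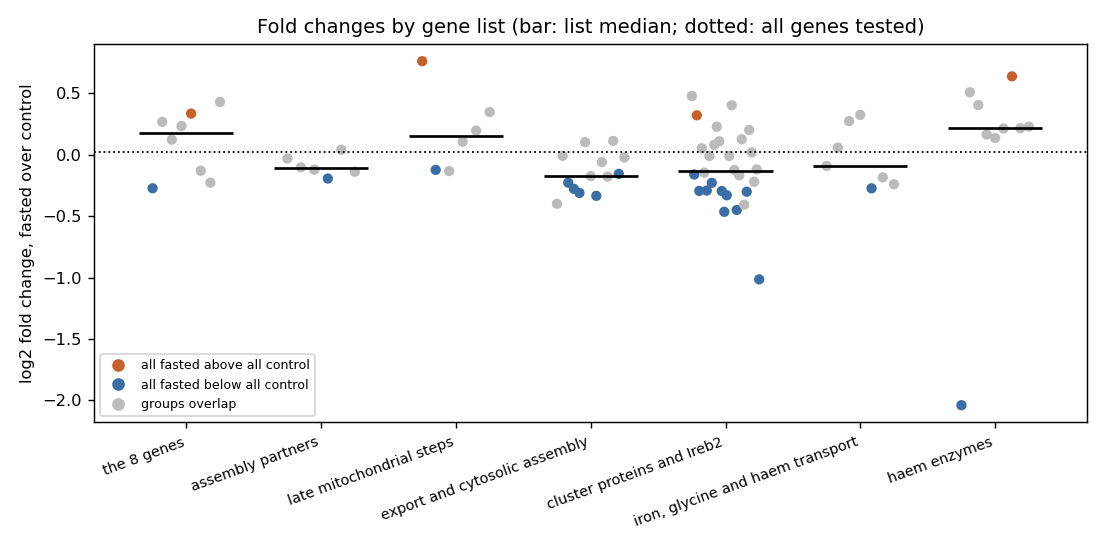
Log2 fold change of fasted over control libraries (vertical axis) for each tested gene of 7 lists (horizontal axis), with blue for genes whose fasted libraries all lie below the controls, orange for all above and grey for overlap. Black bars are list medians, from -0.17 for export and cytosolic assembly to 0.22 for the haem enzymes, and the dotted line is the median of all genes tested, 0.02.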

How the data were processed

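Polyadenylated RNA of sorted progenitors was sequenced in 6 libraries. The authors deposited raw counts per gene with exonic lengths. HISAT2 2.2.1, featureCounts 2.0.1 and the build GRCm38 are named in the submitters' processing notes. The annotation release, strand setting and read filters are not given in the sources used here. Identifiers were named with GENCODE M21, which matched 54435 of 55487 with version, all 54435 with the deposited exonic length. Columns were matched by the libraries' descriptions and groups by the treatment label. No 2 libraries of a group agreed within counting noise (chi-square per degree of freedom at least 22.4).

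The members, lists and rules were chosen with earlier results of these data known. A background rate was taken from 1468 protein-coding receptor genes. Genes passing filterByExpr (36508) were limited to the 10648 whose mean count reached 5 times that rate times length, scaled by TMM and tested with edgeR 4.0.16 in R 4.3.3 (quasi-likelihood, robust, group only), with Benjamini-Hochberg adjustment at 0.05. The SE is the size of the log2 fold change divided by the square root of F. TPM was computed from counts and lengths over all genes. The fit was tested on simulated data with 4-fold changes: it called 174 of the 179 altered genes (97.2%), and 9 that were not altered, out of 10283. The simulation used a dispersion of 0.1 and the same mean profile for all libraries, without the background difference between groups. It therefore does not tell how often smaller changes in the real libraries would be called.

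All 8 genes were named. In each pathway list the gene with the largest fold change was named, as was the closest gene in profile to each of the 8, except for items not reported here. Alternatives were DESeq2 1.42.0, limma-voom (limma 3.58.1), other factors, background limits, background subtraction, dispersion without robust settings, the replicate block, thresholds and leaving out each library. Promoter words were chosen after the windows were seen, and the count ratios after the fold changes. Total counts of 12797144 to 30246110 set the precision.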

Additional observations from a re-analysis of the deposited data

How the results depend on the processing

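The number of genes passing was 0 in the main comparison and moved to 1813 over all genes passing the count filter, to 1631 with the limit at 2 times the background, to 501 with DESeq2 and to 2 at an adjusted p under 0.1 (Alas1 and Scd2, named for their p). Leaving out 1 library gave 0 to 3 genes: Alas1, Scd2 and Fcgr3 without control 1, and Alas1, Scd2 and Gm10718 without control 3. Of the 8 genes, 1 passed (Iscu, lower) over all genes and 1 (Iscu, -0.61, edgeR adjusted p 0.0468) with the limit at 2 times the background, and 0 passed in each other setting. Over all genes Abcb10, Nfs1, Glrx5, Isca1 and Slc25a38 turned to -0.27, -0.41, -0.22, -0.17 and -0.10. At 2 times the background Abcb10, Nfs1 and Glrx5 turned to -0.082, -0.22 and -0.084, and Isca1 and Slc25a38 shrank to 0.0032 and 0.078. Both settings scale libraries over genes nearer to background. Leaving out 1 library gave Glrx5 -0.094 (without control 1) to 0.47, Isca2 -0.31 to 0.021 (without control 1) and Nfs1 -0.0045 (without control 3) to 0.20; the cause was not tested. All 8 kept their sign with RLE, upper-quartile or no factors, DESeq2, limma-voom, dispersion without robust settings, background subtraction and the limit of 10 times the background. No pairing by replicate number was seen. Deviations of same-numbered libraries correlated at -0.16, 0.13 and -0.27 across genes, and not every library correlated best with its own number, though control 2 did. With 3 libraries per group these values cannot settle whether libraries were paired. With the replicate block 0 genes and 0 of the 8 passed (edgeR, 1553 genes at an unadjusted p under 0.05), and the 8 kept their sign. Depth, 12797144 counts at the lowest, gave each of the 8 at least 473 counts per library.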
